A study of Mus musculus with 6 samples.

Results

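Expression of the insulin-like growth factor (IGF) family was followed in nuclei of mouse brains injected with lysophosphatidic acid (LPA) or with vehicle. The 10 members were chosen by gene symbol among the 32285 genes of the deposited matrices: the ligands Igf1 and Igf2, the receptors Igf1r and Igf2r, and the binding proteins Igfbp2, Igfbp3, Igfbp4, Igfbp5, Igfbp6 and Igfbp7. All 10 were present. A further 40 genes of the pathway, from regulators of the binding proteins to Akt and mTOR, were examined beside them.

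The LPA group comprised 3 C57BL/6 S-56 mice that received LPA in the right lateral ventricle at P7, and the vehicle group 3 mice of the same strain and age that received the bovine serum albumin carrier. Brains were taken at P15 without cerebellum and olfactory bulbs, NeuN-negative nuclei were sorted, and each brain gave 1 single-nucleus RNA-seq library. The LPA concentration used for these 6 brains was not given in the sources used here. Counts of Xist and of chromosome Y genes placed LPA 2, LPA 3 and vehicle 2 as female and the other libraries as male.

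In the IGF system, IGF1 and IGF2 are secreted peptides that bind the IGF1 receptor, a tyrosine kinase that signals through insulin receptor substrates, PI3K and Akt to growth, survival and metabolism. The protein of Igf2r, which is also the mannose 6-phosphate receptor, takes up IGF2 and delivers it to lysosomes. Binding proteins hold IGFs in the extracellular fluid, prolong their life and limit or direct their access to the receptor, and proteases release the peptides again. In the brain, IGF2 is known as a product of the meninges and choroid plexus that reaches the cerebrospinal fluid, and IGF1 as a product of some neurons, macrophages and microglia of the early postnatal brain.

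The promoters of a ligand, a receptor and a binding protein that differed between LPA and vehicle nuclei are shown so that their letters can be set beside the levels of these genes. They were read from RefSeq on GRCm38.p6. Each is the 250 bases before the first listed transcript start, 5′ to 3′ on the strand of the gene. Capitals mark matches to 3 motifs on either strand. The GC box was searched as GGGCGG, the TATA box as the letters TATAAA, and the binding motif of NF-Y as CCAAT. Igf1 is taken from chr10:87860861-87861110 (plus strand), Igf1r from chr7:67952007-67952256 (plus strand) and Igfbp5 from chr1:72874866-72875115 (minus strand).
Igf1: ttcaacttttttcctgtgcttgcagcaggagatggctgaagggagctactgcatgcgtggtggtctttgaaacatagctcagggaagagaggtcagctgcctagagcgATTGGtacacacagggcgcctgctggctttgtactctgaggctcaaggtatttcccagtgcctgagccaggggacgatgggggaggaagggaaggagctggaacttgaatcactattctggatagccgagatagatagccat
Igf1r: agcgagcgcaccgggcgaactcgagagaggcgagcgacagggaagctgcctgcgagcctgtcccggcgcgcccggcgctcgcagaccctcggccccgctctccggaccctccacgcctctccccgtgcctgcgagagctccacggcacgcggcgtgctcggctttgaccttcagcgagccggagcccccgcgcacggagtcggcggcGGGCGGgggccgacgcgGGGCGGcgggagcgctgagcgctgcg
Igfbp5: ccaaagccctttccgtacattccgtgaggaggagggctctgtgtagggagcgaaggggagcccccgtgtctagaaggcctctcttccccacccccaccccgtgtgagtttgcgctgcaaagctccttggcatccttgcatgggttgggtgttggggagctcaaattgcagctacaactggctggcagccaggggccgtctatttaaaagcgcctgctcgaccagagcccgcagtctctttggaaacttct
The Igf1 stretch held 1 CCAAT motif, read on the opposite strand, and the Igf1r stretch 2 GC boxes, while the Igfbp5 stretch held none of the 3 motifs. Their GC content was 52.8%, 77.6% and 58.8%. Among all 32851 promoter stretches of this length, 32.7% held a GC box, 12.4% a TATA box and 33.8% a CCAAT motif. These matches describe letters and not sites of binding.

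In the GENCODE M21 annotation of GRCm38, a pair of members are neighbors. Igfbp2 (chr1:72824503-72852474, plus strand) and Igfbp5 (chr1:72857932-72874884, minus strand) lie with their 3′ ends facing each other. The antisense genes Igf1os, Igf2os and Airn overlap Igf1 (chr10:87858265-87937042), Igf2 (chr7:142650766-142666816) and Igf2r (chr17:12682406-12769664), respectively. Reads of such overlaps are told apart only by strand.

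The 6 libraries held between 48852970 and 65688644 unique molecular identifiers (UMIs), and 57443 of 63383 barcodes passed the filters. Clusters were named by fixed markers, so that every cell type name means nuclei that are like this type by these markers. Of 54 clusters 35 were named, and 9067 nuclei (15.78%) stayed unnamed. Although the sort selected NeuN-negative nuclei, 14342 nuclei had a neuronal marker profile. In all, 708 barcodes occurred in several libraries, and leaving out the 804 nuclei kept with such barcodes ended none of the 6 calls of IGF genes given here. Replicates of a group differed beyond sampling noise, with a chi-square per gene of 14.6 to 29.7. Levels are UMIs of a gene per 1000000 UMIs of the summed nuclei (CPM), and precision differs with depth: 1 UMI is a large share of the CPM in macrophages, of which each library held 17 to 60, and little in astrocytes, of which it held 1096 to 2051.

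Among vehicle libraries, Igf1 was highest in macrophages, at 292, 336 and 454 CPM (mean 361 ± 84.3 SD, n = 3). The next types were meningeal cells (46.9 to 78.8 CPM), choroid plexus epithelium (39.7 to 71.8) and Dlx neuroblasts (0 to 78.9), whose ranges overlapped. Neurons had 23.9 to 27.3 CPM and microglia 8.23 to 16.8. Oligodendrocytes, the lowest type, had 0.847 to 2.40 CPM, and the other types between these ranges overlapped with their neighbors in the order. Of all Igf1 UMIs in vehicle nuclei, 49.08% fell in neurons, which were 27.1% of these nuclei, and 20.02% in meningeal cells.

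Within neurons, Igf1 was concentrated in a cluster led by Vip and Adarb2, genes of a known class of cortical interneurons. There it had 288, 327 and 294 CPM in vehicle libraries and 330.1, 334 and 293 CPM in LPA libraries. Another neuronal cluster, led by Col19a1 and Nos1, had 43.4 to 85.5 CPM. Over all neurons the 2 groups overlapped (25.2, 25.5 and 33.1 CPM against 27.3, 26.7 and 23.9), with a log2 fold change of 0.13 ± 0.11 (SE) and adjusted p = 0.851.

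Igf2 had a different distribution. It was highest in meningeal cells, at 214, 169.5 and 172 CPM in vehicle libraries, and 55.75% of its vehicle UMIs came from these nuclei, which were 9.784% of all. Mural cells (42.8 to 59.8 CPM), choroid plexus epithelium (22.8 to 56.8) and endothelial cells (28.04 to 56.8) followed and overlapped with each other. In Dlx neuroblasts of vehicle libraries no Igf2 UMI was counted. These were only 16, 23 and 48 nuclei, so that a low level could be missed.

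Igf1r, the signaling receptor, was found in every type and was highest in endothelial cells, at 3838, 3556 and 3459 CPM (mean 3618 ± 197 SD, n = 3). No other type overlapped with them. Dlx neuroblasts (489 to 1010 CPM), choroid plexus epithelium, macrophages, meningeal cells and ependymal cells followed with overlapping ranges, and oligodendrocytes were lowest, at 68.7 to 73.3 CPM. Igf2r, the uptake receptor, was highest in mural cells, at 204, 249 and 242 CPM, with meningeal cells next at 82.2 to 101 CPM. Its lowest mean was in microglia, at 4.19 to 12.04 CPM from 5 UMIs. Macrophages, at 0 to 29.2 CPM from 2 UMIs, overlapped with them.

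The binding proteins divided among the borders and vessels of the brain. Igfbp7, which binds IGFs weakly, was at 933 to 1394 CPM in endothelial cells and 859 to 1122 in mural cells, overlapping ranges that no other type reached. Within endothelial nuclei it differed by sub-cluster, from 523 to 671 CPM in vehicle nuclei of the sub-cluster led by Gm5127 to 1826 to 3062 CPM in that led by Apln and Prnd, genes of tip cells. Igfbp2 was shared by meningeal cells (184 to 246 CPM) and choroid plexus epithelium (155 to 215), with astrocytes next at 59.6 to 83.5 CPM.

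Igfbp5 was highest in meningeal cells, at 236, 272 and 194 CPM. Igfbp4 was highest in macrophages (146, 145 and 85.2 CPM) and Igfbp6 in meningeal cells (32.5, 22.9 and 20.0 CPM). Igfbp6 was still higher in an unnamed cluster of 314 nuclei led by Dpp4 and Cubn, with 146, 179.8 and 141 CPM. Igfbp3 was highest in endothelial cells, but uneven there, at 14.2, 60.4 and 66.8 CPM in vehicle libraries. Its endothelial UMIs included 19 of vehicle nuclei in a small sub-cluster led by Bmx and Eln, genes of arteries, which held 2, 9 and 14 nuclei.

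**Figure D1:**
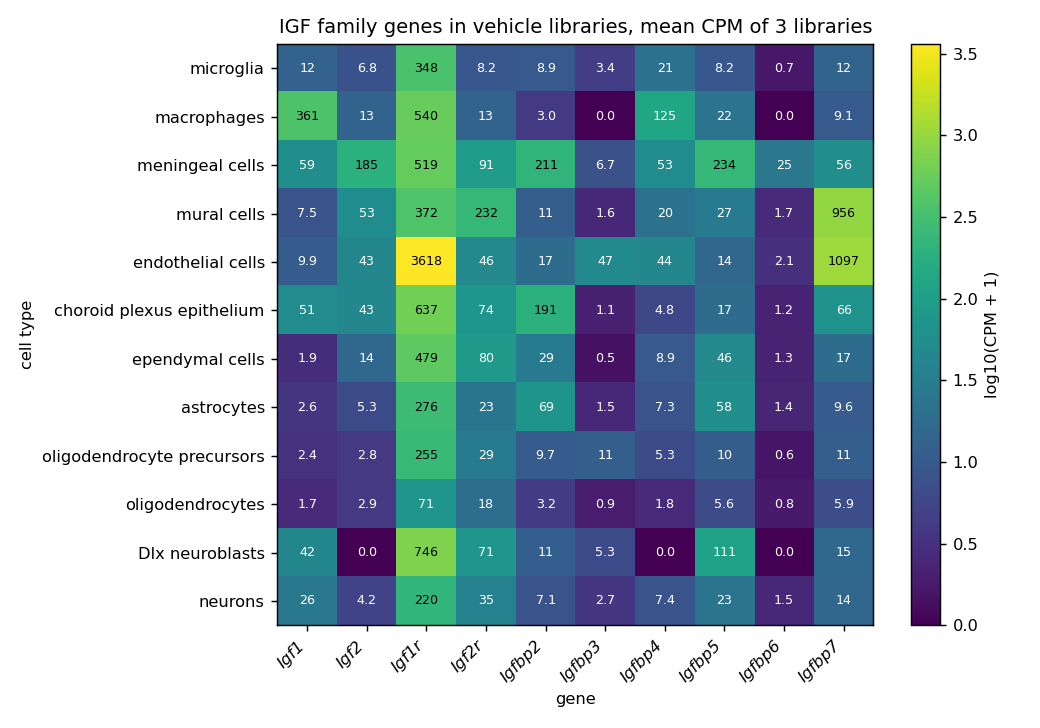
Mean CPM of the 10 IGF genes (columns) in 12 cell types (rows) of the 3 vehicle libraries, as printed numbers and as color on a log10(CPM + 1) scale. Igf1r in endothelial cells, Igfbp7 in endothelial and mural cells, Igf1 in macrophages and Igf2 and Igfbp5 in meningeal cells stand out in their columns. Igfbp2 is shared by meningeal cells and choroid plexus epithelium.

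Meningeal nuclei were themselves divided, and IGF genes followed these divisions although none of them was used for clustering. Igf2 had 335 to 424 CPM in vehicle libraries in the sub-cluster led by Gm30613 and Cyp26b1 and 284 to 364 in that led by Col15a1. In the sub-cluster led by Slc47a1 and Slc47a2, which encode transporters, it had 35.9 to 50.3 CPM.

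Igfbp5 showed the opposite order in these sub-clusters. It was at 746, 899 and 647 CPM in the Slc47a1 sub-cluster of vehicle libraries, and at 39 CPM over all vehicle nuclei of the Gm30613 sub-cluster. Igfbp2 had 375 CPM over these Gm30613 nuclei and 50.4 CPM over those of the Slc47a1 sub-cluster. Igfbp4 had 349, 297 and 268 CPM in a sub-cluster led by Moxd1 and Dpep1, which held 11, 37 and 36 nuclei of the vehicle libraries. These levels describe clusters of the same nuclei and were not tested against each other.

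**Figure D2:**
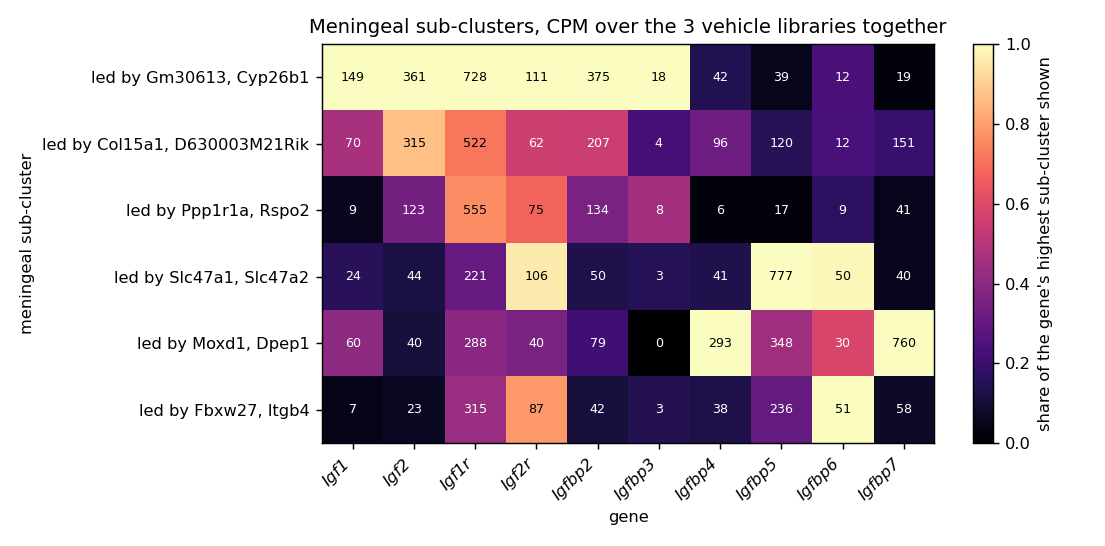
CPM of the 10 IGF genes (columns) in 6 meningeal sub-clusters (rows, with leading genes), from the summed nuclei of the 3 vehicle libraries. Color gives the share of the highest sub-cluster shown for each gene, and the 2 upper rows carry Igf2 while the row of Slc47a1 carries Igfbp5.

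The question of the study design is how LPA injection alters these nuclei. Over 12 cell types, 74 combinations of IGF gene and type had enough UMIs for a test. A gene was called where the adjusted p was below 0.05 and the log2 fold change reached 0.25 in either direction. By this rule 3 of them were higher in LPA nuclei (Igf1 in microglia, Igfbp5 in astrocytes and Igfbp3 in meningeal cells) and 1 was lower (Igf2 in astrocytes). For all genes tested in these types, 0.929% were called higher and 0.74% lower. When all immune nuclei were summed, 2 of 4 IGF genes tested, Igf1 and Igf1r, were higher, where 3.78% of all genes tested were. Over all genes tested, the share called in either direction was 0% in macrophages, 0.406% in mural cells, 0.145% in endothelial cells, 0.134% in choroid plexus epithelium and 3.15% in ependymal cells. In 8 pairs of types, 5 of 63 tested LPA effects on IGF genes differed, where 1.13% of all genes tested did.

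**Figure D3:**
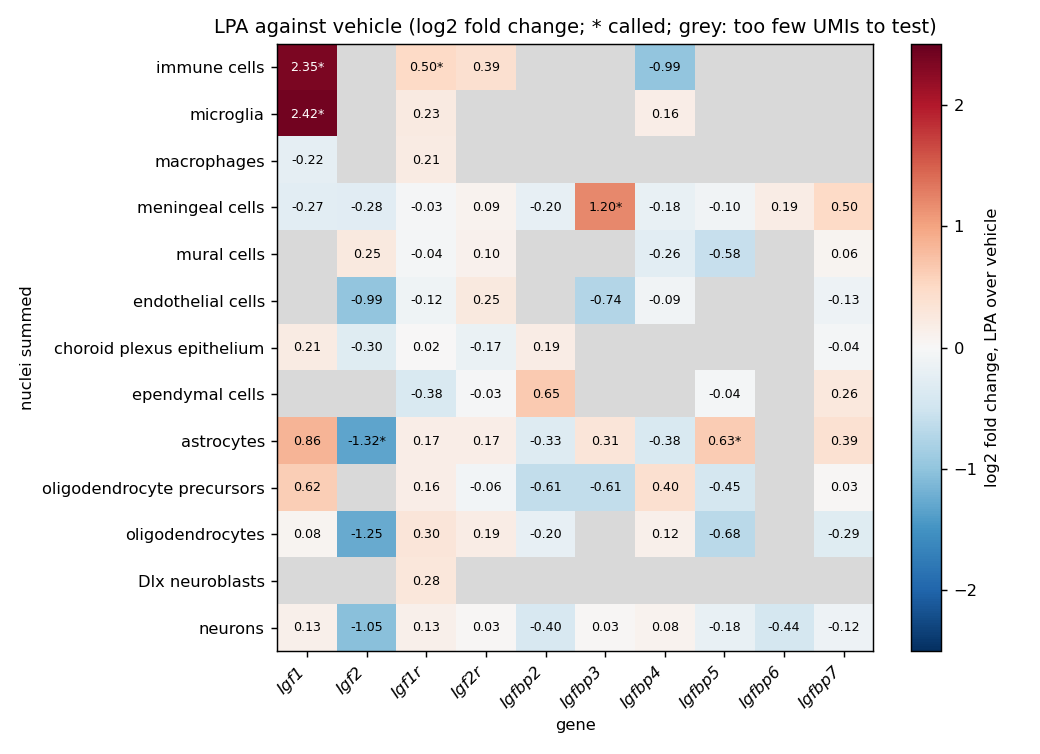
Log2 fold change of LPA against vehicle for the 10 IGF genes (columns) in immune nuclei together and in 12 cell types (rows), from the edgeR fit, with 3 libraries in each group. Asterisks mark called genes, grey cells had too few UMIs to test, and the most intense colors are those of Igf1 in immune nuclei (2.35) and microglia (2.42).

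The ligand Igf1 had the greatest difference of the family. In immune nuclei it was at 330.2, 346 and 482 CPM in the 3 LPA libraries (290, 401 and 435 UMIs) and at 57.5, 75.7 and 96.6 CPM in the 3 vehicle libraries (12, 45 and 17 UMIs). Every LPA library was above every vehicle library. The log2 fold change was 2.35 ± 0.19 (SE), with adjusted p = 1.15e-10 by edgeR. A UMI of Igf1 was found in 23.2% to 34.5% of immune nuclei after LPA and in 3.91% to 7.33% after vehicle, against 0.466% to 1.25% of oligodendrocytes, the type with the lowest level. The median depth was 1274 to 2020 UMIs in immune nuclei and 4419 to 6364 in oligodendrocytes. With each nucleus thinned to 1000 UMIs, these shares were 15.9% to 23.8% and 2.52% to 5.23% of immune nuclei, over 403 to 576 nuclei of each LPA library and 119 to 363 of each vehicle library deep enough to be thinned.

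Immune sub-clusters differed widely in Igf1. In the main sub-cluster of microglia, led by Tmem119 and Selplg, Igf1 had 20.6, 16.9 and 18.7 CPM in LPA libraries and 12.04, 8.57 and 8.32 CPM in vehicle libraries, from 21 and 7 UMIs. In activated microglia, named from Spp1, Gpnmb, Lpl and related markers of phagocytic microglia, it had 1440, 1002 and 1210 CPM and a UMI in 77.1% to 81.2% of nuclei. All 202 activated nuclei came from LPA libraries (48, 83 and 71), so that vehicle libraries gave no value. An unnamed sub-cluster led by 5033421B08Rik, with 258 LPA nuclei and 1 vehicle nucleus, had 495, 695 and 755 CPM. A sub-cluster of microglia led by Gm48633 and Asb10, with 247 LPA nuclei and 4 vehicle nuclei, had 111, 160.2 and 277 CPM.

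Sub-cluster sizes rest on genes that differ between the groups and are given only as the makeup of the sums. With the same number of nuclei from each sub-cluster present in every library, the log2 fold change of Igf1 in immune nuclei was 0.15 (adjusted p = 0.967). That sum held 117 nuclei per library, with 95 of the main microglial sub-cluster and 17 macrophages. Igf1 was far higher in macrophages than in this sub-cluster, so the value does not give the effect in microglia alone. Without activated microglia the log2 fold change in immune nuclei was 1.56 (adjusted p = 2.14e-05). This sum kept the sub-clusters led by 5033421B08Rik and by Gm48633, which had nearly no vehicle nuclei. They gave 69, 131 and 158 and 15, 29 and 52 of its Igf1 UMIs in the 3 LPA libraries. Summed markers of activated microglia moved with Igf1, at 2784 to 4136 CPM in LPA and 1250 to 1793 in vehicle immune nuclei, with 7 of 8 higher in every LPA library and none at 0. Macrophage markers went the other way, at 1089 to 1591 and 2457 to 2988 CPM. The part of either in the result was not tested further.

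In microglia without the activated nuclei, Igf1 was at 50.1, 67.8 and 124 CPM after LPA and 12.04, 16.8 and 8.23 CPM after vehicle, from 132 and 11 UMIs. Of these, 21 LPA and 7 vehicle UMIs came from the main sub-cluster, which both groups shared. The Gm48633 sub-cluster, which had nearly no vehicle nuclei, gave 15, 29 and 52 of the LPA UMIs. The groups did not overlap (log2 fold change 2.42 ± 0.41, adjusted p = 1.24e-04), where 0.736% of all genes tested were called higher. Summed macrophage markers in these microglia were at 336 to 457 CPM in LPA and 57.6 to 96.4 CPM in vehicle libraries, with 2 of 7 higher in every LPA library and 1 at 0. Markers of activated microglia were at 1046 to 1625 CPM against 614 to 929, with 5 of 8 higher in every LPA library. Markers of microglia were at 6175 to 6611 CPM against 7222 to 8418, with 5 of 9 lower. The part of these markers in the result was not tested. With equal cluster mix, which kept only 95 microglial nuclei per library, all of the main sub-cluster, Igf1 could not be tested. Over the other 15 alternatives the log2 fold change ran from 2.02 to 3.83, with 14 calls. These alternatives kept sub-clusters with nearly no vehicle nuclei. Without the mitochondrial filter, microglia also included the sub-cluster led by 5033421B08Rik, with 1 vehicle nucleus. DESeq2 gave no adjusted p for Igf1 in microglia.

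In macrophages, Igf1 overlapped between groups, at 405, 281 and 240 CPM after LPA and 292, 336 and 454 CPM after vehicle. The log2 fold change was -0.22 ± 0.33 (adjusted p = 0.961), in a sum of few nuclei in which 0% of 1172 genes tested were called. The LPA effect on Igf1 was higher in all microglia than in macrophages by 4.56 ± 0.50 on the log2 scale (adjusted p = 6.99e-15). It was higher in all microglia than in meningeal cells by 4.72 ± 0.33 (adjusted p = 1.57e-41). All microglia here include the activated nuclei, which had 581 Igf1 UMIs and no vehicle counterpart, beside 132 LPA and 11 vehicle UMIs of the other microglia. In these 2 comparisons, 1.23% and 2.42% of all genes tested differed.

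**Figure D4:**
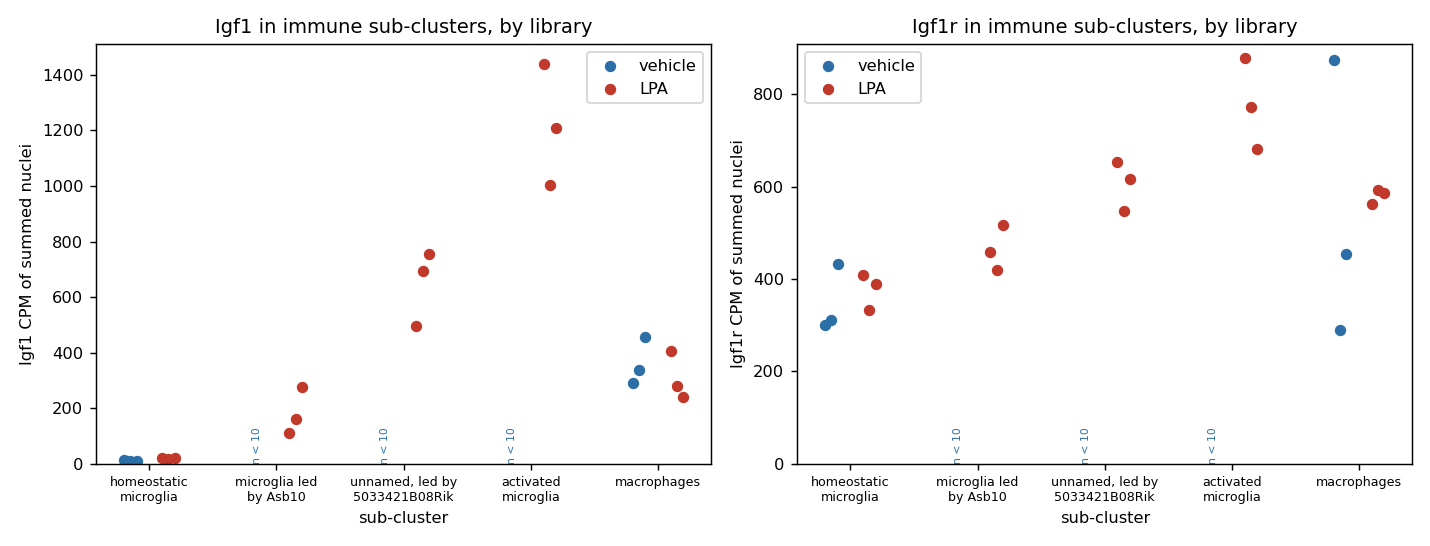
CPM of Igf1 (left) and Igf1r (right) in 5 immune sub-clusters, with 1 point per library (blue, vehicle; red, LPA) and points shown for libraries with 10 or more nuclei. For Igf1, LPA points lie at 16.9 to 20.6 CPM in homeostatic microglia (the main sub-cluster) and at 1002 to 1440 CPM in activated microglia, and those of macrophages overlap between groups.

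Outside immune nuclei, Igf1 had its smallest adjusted p in astrocytes. There it had 3.92, 5.41 and 4.88 CPM after LPA and 2.03, 2.48 and 3.30 CPM after vehicle, without overlap (log2 fold change 0.86 ± 0.28, adjusted p = 0.0671). In ependymal cells it had 27 UMIs after LPA and 3 after vehicle, too few for a test. In meningeal cells (-0.27 ± 0.18, adjusted p = 0.674) and choroid plexus epithelium (0.21 ± 0.25, adjusted p = 0.945) the groups overlapped.

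Igf1r was at 524, 467 and 523 CPM in LPA immune nuclei and 383, 313 and 415 CPM in vehicle immune nuclei, so that the groups did not overlap. The log2 fold change was 0.50 ± 0.13 (adjusted p = 0.0118). Activated microglia had 879, 773 and 681 CPM, against 409, 333 and 388 CPM in the main microglial sub-cluster of the same libraries. Its vehicle values there, 301, 311 and 433 CPM, overlapped with those of LPA. Without activated microglia the log2 fold change in immune nuclei was 0.32 (adjusted p = 0.249), and with equal numbers of each sub-cluster it was -0.01 (adjusted p = 0.997). In microglia without the activated nuclei it was 0.23 ± 0.14 (adjusted p = 0.607), and in macrophages 0.21 ± 0.31 (adjusted p = 0.961).

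The call of Igf1r in immune nuclei was lost when single libraries were left out. Without LPA 3 the adjusted p was 0.0777 and without vehicle 2 it was 0.26. DESeq2 gave 0.0526. Over 17 alternatives it ranged from 6.57e-04 to 0.997, with 12 calls.

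In other types, the IGF1 receptor gene moved by less. Its log2 fold change was 0.30 ± 0.07 in oligodendrocytes (91.9, 83.5 and 83.0 CPM against 72.0, 68.7 and 73.3; adjusted p = 0.0852) and 0.17 ± 0.06 in astrocytes (adjusted p = 0.131). In ependymal cells it was lower in each LPA library, at 371, 356 and 384 CPM against 528, 468 and 442 CPM, with a log2 fold change of -0.38 ± 0.11 (adjusted p = 0.0727). The LPA effect on Igf1r differed between astrocytes and ependymal cells by 0.56 ± 0.12 (adjusted p = 0.00186), where 2.84% of all genes tested differed. Without vehicle 1 the adjusted p was 0.0577. It also differed between all microglia and meningeal cells, by 0.53 ± 0.15 (adjusted p = 0.0293). That difference was lost without LPA 2, LPA 3, vehicle 1 or vehicle 2 (adjusted p up to 0.272). All microglia here include the activated nuclei, which had 378 Igf1r UMIs and no vehicle counterpart. Endothelial cells, where the gene is highest, had a log2 fold change of -0.12 ± 0.09 (adjusted p = 0.833).

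The adjusted p of Igf2r lay between 0.48 and 0.97 over the types tested. Its log2 fold changes lay between -0.17 in choroid plexus epithelium and 0.39 in immune nuclei, both with overlapping groups. In mural cells, its highest type, it had 273, 227 and 258 CPM after LPA and 204, 249 and 242 CPM after vehicle (0.10 ± 0.13, adjusted p = 0.901).

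Igf2 was lower over all nuclei kept, at 8.84, 10.1 and 9.87 CPM after LPA and 21.1, 20.99 and 19.7 CPM after vehicle. Its main source was also a smaller share of the nuclei. Meningeal cells were 3.70%, 5.19% and 4.06% of nuclei in LPA libraries and 8.87%, 10.14% and 10.02% in vehicle libraries. Within meningeal cells, Igf2 was at 150.1, 132 and 173 CPM against 214, 169.5 and 172 CPM, with LPA 3 inside the vehicle range (log2 fold change -0.28 ± 0.11, adjusted p = 0.329). How far nuclei recovered and level per nucleus each contribute to the sum over all nuclei was not tested.

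In astrocytes, where Igf2 is sparse, it had 1.63, 2.99 and 1.45 CPM after LPA (10, 21 and 8 UMIs) and 5.22, 5.79 and 4.74 CPM after vehicle (18, 35 and 23 UMIs). The log2 fold change was -1.32 ± 0.30 (adjusted p = 0.00849), where 3.14% of all genes tested were called lower. Meningeal markers moved the same way in these astrocyte sums, at 164 to 175 CPM in LPA and 218 to 232 CPM in vehicle libraries. Of these 10 markers 4 were lower in every LPA library and none was at 0. Their part in the result was not tested. Without vehicle 2 the adjusted p was 0.0576, in a range of 4.09e-04 to 0.0576 over 16 alternatives.

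The same direction stood in other types without a call. Igf2 had a log2 fold change of -1.05 ± 0.20 in neurons (2.02, 2.26 and 1.80 CPM against 3.61, 4.83 and 4.18; adjusted p = 0.15). It was -1.25 ± 0.38 in oligodendrocytes (adjusted p = 0.212) and -0.99 ± 0.31 in endothelial cells (22.5, 18.8 and 23.7 CPM against 56.8, 28.04 and 42.7; adjusted p = 0.325). In mural cells the direction was opposite (0.25 ± 0.24, adjusted p = 0.847). Summed meningeal markers were lower beside it in neurons, oligodendrocytes and endothelial cells. They had 51.0 to 69.8 CPM against 101 to 124 in neurons, with 8 of 10 lower in every LPA library. In oligodendrocytes they had 20.6 to 31.5 CPM against 45.6 to 61.7, with 7 of 10 lower. In endothelial cells they had 199 to 403 CPM against 410.1 to 524, with 4 of 10 lower. None of the 10 was at 0 in any of the 3 types. The markers were also lower in mural cells and oligodendrocyte precursors. In mural cells they had 1331 to 1604 CPM against 1872 to 1948, with 3 of 10 lower in every LPA library. In oligodendrocyte precursors they had 38.6 to 51.95 CPM against 59.7 to 105, with 7 of 10 lower. Igf2 had a mean of 2.75 CPM after LPA and 2.84 CPM after vehicle there. These rest on 32 and 21 UMIs, too few for a test. The part of the markers was not tested.

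Among the binding proteins, Igfbp5 was higher in astrocytes after LPA. It had 80.0, 80.9 and 103 CPM in LPA libraries (mean 87.9 ± 12.98 SD, n = 3) and 60.3, 58.4 and 53.8 CPM in vehicle libraries (mean 57.5 ± 3.31 SD, n = 3). No LPA library fell within the vehicle range. The log2 fold change was 0.63 ± 0.10, with adjusted p = 0.00053, in a type in which 5.01% of all genes tested were called higher. Ependymal markers in the astrocyte sums were at 74.4 to 80.9 CPM in LPA and 38.1 to 47.2 CPM in vehicle libraries, with 3 of 7 higher in every LPA library and none at 0. Of the 10 astrocyte markers, 5 were lower in every LPA library. Their part in the result was not tested.

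Astrocytes fell into 3 clusters, and Igfbp5 was highest in that led by Gfap and Myoc. There it had 250.2, 255 and 300 CPM after LPA and 237, 259 and 315 CPM after vehicle, so that the groups overlapped. In the cluster led by Grin2c it had 30.9, 34.1 and 42.4 CPM against 54.4, 49.0 and 37.7 CPM. In that led by Slc6a11 it had 16.3, 24.3 and 20.0 CPM against 26.5, 17.0 and 15.8 CPM. In neither cluster was each LPA library above each vehicle library.

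The Gfap cluster comprised 24.65%, 23.99% and 25.7% of astrocytes in LPA libraries and 10.77%, 12.47% and 11.37% in vehicle libraries. Gfap, which leads this cluster, was itself higher in it after LPA, at 843, 827 and 969.9 CPM against 780.1, 543 and 616 CPM. The shares are therefore given as the makeup of the sums and not as a result. With equal numbers of nuclei from each cluster, the log2 fold change of Igfbp5 was 0.04 (adjusted p = 0.892). Without the mitochondrial filter, with nuclei clustered again, the adjusted p was 0.051, in a range of 1.11e-10 to 0.892 over 16 alternatives.

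**Figure D5:**
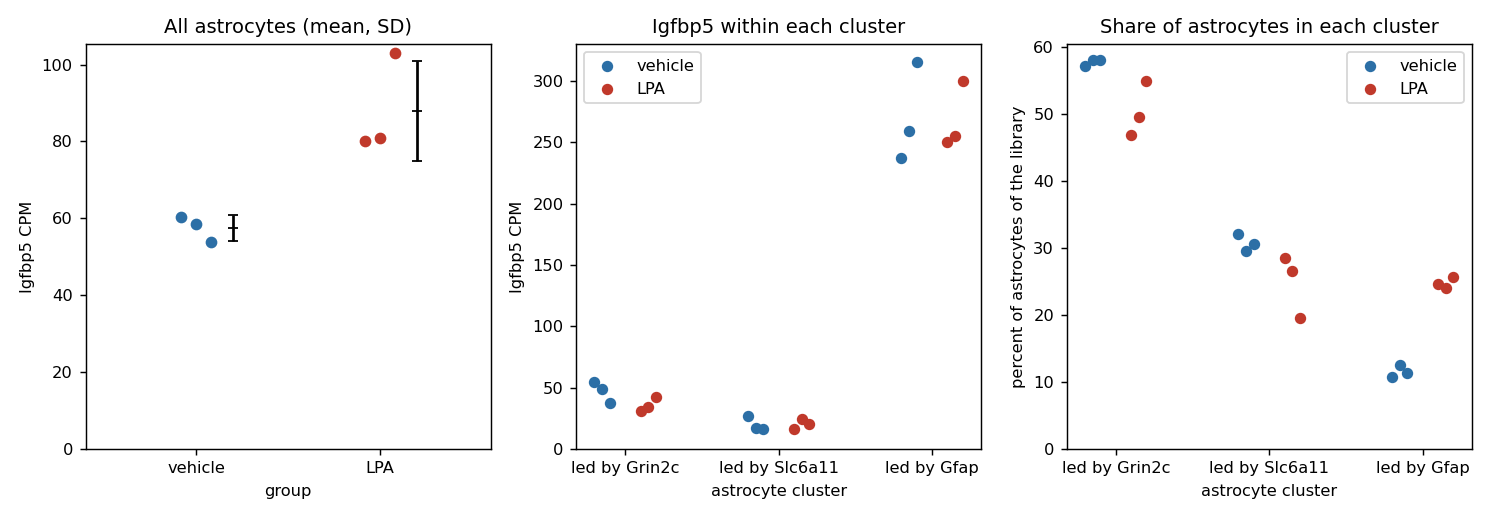
Igfbp5 CPM in all astrocytes (left; bars are mean and SD of 3 libraries), Igfbp5 CPM in each astrocyte cluster (middle) and percent of astrocytes in each cluster (right), with 1 point per library (blue, vehicle; red, LPA). Igfbp5 overlaps between groups in the cluster led by Gfap, whose share of astrocytes is 10.77% to 12.47% in vehicle and 23.99% to 25.7% in LPA libraries.

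Igfbp3 was higher in meningeal cells after LPA, at 10.2, 17.2 and 17.1 CPM (11, 29 and 20 UMIs) against 7.88, 6.07 and 6.22 CPM (16, 21 and 19 UMIs). The log2 fold change was 1.20 ± 0.29 (adjusted p = 0.0414), where 0.611% of all genes tested were called higher. In the Gm30613 sub-cluster, where it was highest, it had 31.4, 48.8 and 53.7 CPM against 22.9, 15.3 and 15.7 CPM. This sub-cluster held 54, 86 and 55 LPA nuclei and 166, 226 and 245 vehicle nuclei, so its values rest on a part of the few UMIs above. The call in all meningeal cells was held by 7 of 15 alternatives. It was lost without LPA 2, LPA 3 or any 1 of the vehicle libraries, and the adjusted p ranged from 0.00821 to 0.241.

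In endothelial cells, Igfbp3 had 35.7, 28.9 and 22.1 CPM after LPA, inside the vehicle range of 14.2 to 66.8 (log2 fold change -0.74 ± 0.35, adjusted p = 0.679). The difference of the LPA effect between meningeal and endothelial cells was 1.95 ± 0.47 (adjusted p = 0.0944), and 0.053% of all genes tested differed between this pair. Igfbp3 in oligodendrocyte precursors had 7.90, 7.96 and 5.28 CPM against 12.4, 11.2 and 9.11 CPM (-0.61 ± 0.24, adjusted p = 0.386).

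The LPA effect on Igfbp2 differed between astrocytes and ependymal cells. In astrocytes it had 47.2, 64.2 and 50.5 CPM after LPA and 83.5, 65.3 and 59.6 CPM after vehicle (log2 fold change -0.33 ± 0.12, adjusted p = 0.107). In ependymal cells, which line the ventricles, it had 39.2, 62.5 and 45.8 CPM against 37.9, 20.0 and 29.4 CPM (0.65 ± 0.26, adjusted p = 0.224). Neither was called, and the difference of the LPA effects was -1.04 ± 0.26, astrocytes minus ependymal cells (adjusted p = 0.00965). Without vehicle 1 the adjusted p was 0.0686 and without vehicle 2 it was 0.0653. In choroid plexus epithelium and meningeal cells the Igfbp2 ranges overlapped between groups.

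Of the remaining binding proteins, Igfbp4 in immune nuclei had the smallest adjusted p. It had 27.3, 18.1 and 18.8 CPM after LPA and 38.3, 48.8 and 28.4 CPM after vehicle, without overlap (log2 fold change -0.99 ± 0.31, adjusted p = 0.0502). With library totals in place of TMM the adjusted p was 0.0472, without LPA 1 it was 0.0302 and without vehicle 2 it was 0.624. It is highest in macrophages, whose share of immune nuclei was 3.76% to 5.50% in LPA and 12.7% to 17.2% in vehicle libraries. In microglia alone it was 0.16 ± 0.41 (adjusted p = 0.932). Igfbp7 in meningeal cells had 69.5, 96.6 and 68.2 CPM against 45.8, 66.2 and 55.3 CPM, also without overlap (0.50 ± 0.15, adjusted p = 0.145). Igfbp7 in endothelial cells (-0.13 ± 0.13) and mural cells (0.06 ± 0.11) overlapped between groups. Igfbp6 was tested in meningeal cells (0.19 ± 0.20, adjusted p = 0.831) and neurons (-0.44 ± 0.30, adjusted p = 0.81).

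Of the 40 other genes of the pathway, 326 combinations with 12 cell types were tested, of which 9 were higher and 6 lower after LPA. This compares with 0.929% higher and 0.74% lower over all genes of these types. The median log2 fold change of the tested pathway genes was 0.07 in astrocytes and 0.02 in neurons, and that of all genes there was -0.0085 and -0.0042. Over the 12 types the pathway median ran from -0.05 in ependymal cells to 0.21 in macrophages, where only 10 pathway genes were tested.

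Ide, which encodes the insulin-degrading enzyme and was the only gene listed for peptide breakdown, was higher in 5 of the 12 types. In neurons it had 74.5, 75.9 and 75.2 CPM after LPA and 45.8, 47.1 and 46.4 CPM after vehicle (log2 fold change 0.71 ± 0.06, adjusted p = 0.00126). The groups lay far apart beside the spread of the libraries. In astrocytes it had 90.3, 95.9 and 91.9 CPM against 70.7, 56.4 and 59.6 CPM (0.61 ± 0.08, adjusted p = 1.43e-04). It was also called in oligodendrocytes (0.61 ± 0.08), meningeal cells (0.66 ± 0.13) and oligodendrocyte precursors (0.49 ± 0.10), and in the sum of immune nuclei (0.94 ± 0.27). The share of all genes called higher was 0.0469% in neurons, 0.116% in oligodendrocytes and 0.0233% in oligodendrocyte precursors. The calls in neurons and astrocytes held in all 16 alternatives, those in oligodendrocytes and meningeal cells in 14 and that in oligodendrocyte precursors in 7. That in immune nuclei held in 9 of 17, and with equal numbers of each sub-cluster its log2 fold change was 0.14 (adjusted p = 0.975).

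Of the adaptors of the receptor, Irs1, an insulin receptor substrate, was higher in astrocytes, at 70.4, 74.8 and 77.4 CPM against 46.4, 51.0 and 50.3 CPM (0.60 ± 0.08, adjusted p = 1.04e-04). It was also higher in meningeal cells, at 205, 220 and 235 CPM against 152, 188 and 139 CPM (0.47 ± 0.11, adjusted p = 0.0305), a call held by 10 of 16 alternatives. Grb14, an inhibitor of the insulin receptor, was lower in microglia, at 11.1, 19.2 and 21.1 CPM against 60.2, 58.7 and 41.2 CPM (-1.71 ± 0.36, adjusted p = 0.00258), where 0.723% of all genes tested were called lower. It was lower in astrocytes too (-0.50 ± 0.12). These calls held in 13 of 15 and 12 of 16 alternatives. Grb10, a related adaptor, was lower in Dlx neuroblasts (-1.89 ± 0.43, adjusted p = 0.0385), on 68 UMIs in all and where 0.559% of all genes tested were called lower. This call held in 7 of 15 alternatives, over which the log2 fold change ran from -2.40 to -0.49 and the adjusted p reached 0.403.

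Of the PI3K and Akt genes, Pik3cb, a catalytic subunit, was higher in astrocytes (0.43 ± 0.11) and Pik3r1, a regulatory subunit, lower in meningeal cells (-0.49 ± 0.12), where 0.523% of all genes tested were. These calls held in 11 and 8 of 16 alternatives, and the adjusted p reached 0.0937 and 0.239. Of the genes for cleavage of binding proteins, the protease gene Htra1 was lower in astrocytes, at 646, 708 and 656 CPM against 972, 879.7 and 909 CPM (-0.44 ± 0.06, adjusted p = 1.87e-04). Pappa, whose product cleaves IGFBP4, was higher there, at 10.9, 4.56 and 6.87 CPM against 2.61, 3.47 and 4.33 CPM (1.07 ± 0.32, adjusted p = 0.0455). That call held in 7 of 16 alternatives, and with equal numbers of each cluster the log2 fold change was 0.28 (adjusted p = 0.783). By listed role, the calls in the 12 types lay in peptide breakdown (Ide alone), adaptors, PI3K and Akt, and cleavage of binding proteins. These groups were not tested as sets.

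The genes whose pattern over 75 sums of library and cell type was most like that of the called members were named by Pearson correlation of log2(CPM + 1) among 15644 genes. The sums of a library share its depth, so the values are descriptions. For Igf1 they were Gnpda1 (0.819), Wwp1 (0.804) and Adam33 (0.803). For Igf2 they were Frk (0.863), Slc22a8 (0.852) and Slc6a20a (0.85), and for Igf1r Insr, the insulin receptor gene (0.854), Slc39a10 (0.818) and Ctnnb1 (0.773). For Igfbp3 they were Gm15581 (0.76), Vwa1 (0.752) and Notum (0.743). For Igfbp5 they were Gli3 (0.715), Arhgap21 (0.714) and Lgr4 (0.697).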

How the data were processed

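NeuN-negative nuclei of 3 LPA-injected and 3 vehicle-injected brains were profiled with the 10x Genomics 3′ v3 kit. The authors made the deposited filtered matrices with Cell Ranger 4.0.0 and a pre-mRNA form of mm10 that lets intronic reads count, and the values are raw UMI counts without normalization. Groups and replicate numbers are those of the labels. As in the study's Methods, nuclei with under 300 genes, over 1% mitochondrial UMIs or an outlying UMI count were removed. The limit for outliers, the third quartile plus 1.5 interquartile ranges, was chosen here.

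Nuclei were clustered with scanpy 1.11.5 and leidenalg 0.10.2 (3000 variable genes, 40 principal components, 30 neighbors, resolution 1, seed 1) without the IGF genes, pathway genes, markers, mitochondrial and sex-linked genes, and immune and vascular nuclei again with 2000, 20 and 20. Clusters were named from 13 marker lists by their 8 best markers, at least 3 of them detected in 10% of nuclei. Limits for mixed or shallow clusters were chosen once the clusters were known. Of the markers, 6 were highest in another type than their own. The study's integration and label transfer were not repeated. Scrublet's doublet calls (17.0% to 20.4% of nuclei, expected rate 0.08) were left out in an alternative only.

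UMIs were summed per library and type with at least 10 nuclei in each library and tested with edgeR 4.0.16 (R 4.3.3, TMM, filterByExpr, quasi-likelihood test, Benjamini-Hochberg over all genes of a type). The SE is the log2 fold change over the square root of F. Differences between types were tested in 8 pairs with library as a term, all microglia there being microglia and activated microglia together. Each library is 1 brain. Within a type, p-values measure the spread between these brains, with spread estimates drawn toward those of other genes. Between types, library is a term, so they measure the spread of the difference between types within brains, drawn toward other genes likewise. The very small p-values of these pairs therefore do not rest on the spread of the 6 brains alone. The test within types was also run on simulated counts, and that between types only for meningeal and mural cells. No simulated group lacked a sub-cluster, so the comparisons of microglia were not checked in this way.

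The genes named are all 10 members in every type, pathway genes called in a type (up to 3 in each direction with values) and the 3 genes most like each called member among those with 20 CPM in at least 1 sum. Clusters described, and their leading genes, were chosen after their values were seen. 1 pathway gene and 1 meningeal sub-cluster are not reported here. Members, lists and tests were chosen with earlier results of these data known. Same-numbered libraries correlated in their deviations at -0.045, 0.272 and 0.156, so the numbers were not taken to pair them. There were 15 alternatives set at the start (DESeq2 1.42.0, scaling, filters, doublets, resolution, equal cluster mix, replicate block, sex, each library left out) and 2 added after seeing the data (nuclei with shared barcodes, and activated microglia, left out). Counts of alternatives are over those in which the gene could be tested.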

Additional observations from a re-analysis of the deposited data

Results flagged for a closer look

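For 5 results the LPA effect of an IGF gene differed between cell types by a test of the difference itself. The effect on Igf1 in all microglia was higher than that in macrophages by 4.562 (adjusted p = 6.99e-15) and than that in meningeal cells by 4.718 (adjusted p = 1.57e-41) on the log2 scale. All microglia include 202 activated nuclei, all from LPA libraries, with 581 Igf1 UMIs and 378 Igf1r UMIs. The effect on Igf1r was higher in all microglia than in meningeal cells by 0.5288 (adjusted p = 0.0293) and higher in astrocytes than in ependymal cells by 0.561 (adjusted p = 0.00186). For Igfbp2, the effect in astrocytes minus that in ependymal cells was -1.035 (adjusted p = 0.00965). Over the 8 pairs of types, 1.13% of all genes tested differed.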

How the results depend on the processing

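Of the alternative values, 670 kept their direction and side of the threshold, 91 lost the call, 47 gained one and 8 changed sign. IGF genes called higher over the 12 types (3) were 1 with DESeq2, 5 without the filter on low counts, 5 without the mitochondrial filter and 0 with equal cluster mix, and 2 to 3 with each library left out. Those called lower (1) were 5 without the filter on low counts, 3 without the mitochondrial filter and 0 to 2 with each library left out. Without the mitochondrial filter, nuclei were clustered and named again, so that its cell types hold partly other nuclei. Pathway genes called higher (9) were 15 without the mitochondrial filter and 5 to 9 with each library left out. Those called lower (6) were 2 with DESeq2, 2 with equal cluster mix and 3 to 5 with each library left out. Igf1 in immune nuclei had a log2 fold change of 0.147 with equal cluster mix, and 2.156 to 2.454 with each library left out. The 5 differences between types were 3 to 5 with each library left out.

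The sign changed for Igf1r in immune nuclei (-0.00638), Pdpk1 in microglia (-0.01351), Igfbp6 in meningeal cells (-0.137) and Igfbpl1 in Dlx neuroblasts (-0.1132) with equal cluster mix. It also changed for Igfbp5 in meningeal cells without the mitochondrial filter (1.121). In that setting nuclei were clustered again, and the clusters led by Slc47a1 (1353 nuclei) and by Ptgds (779 nuclei) stayed unnamed. Its meningeal cells are therefore partly other nuclei than those of the main setting. With each library left out, Igfbp5 in meningeal cells ranged from -0.2165 to 0.0342 (without vehicle 2), H19 there from -0.0293 (without LPA 3) to 0.4886 and Igfbpl1 in Dlx neuroblasts from -0.000659 (without LPA 2) to 0.3655. The cause was not tested, except that equal cluster mix holds fewer nuclei and leaves out sub-clusters of 1 group. With the replicate block, which pairs libraries that share only a number, Igfbp3 in meningeal cells had a log2 fold change of 1.20 and adjusted p = 0.0561, and the other 5 IGF calls remained. Depth limits sparse genes: Igf2 in astrocytes and Igfbp3 in meningeal cells rest on 115 and 116 UMIs.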
